A study of Mus musculus with 10 samples.

Results

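Copying the genome is the central event of S phase, and the proteins that carry it out are made in cells that are about to divide. In G1 the origin recognition complex, Cdc6 and Cdt1 load the MCM helicase onto DNA; in S phase Cdc45 and the GINS complex join MCM to form the moving helicase, and DNA polymerases with their clamp copy both strands behind it. Many of these genes are targets of E2F transcription factors, which cyclin E and its kinase release from the retinoblastoma protein at the G1/S transition. Bone marrow is among the most proliferative adult tissues, and its dividing cells are mainly the erythroid, granulocytic, monocytic and lymphoid precursors. The 46 genes described here were taken by symbol from a fixed list, chosen with earlier results of these data known. The list holds 10 genes of origin licensing and helicase loading, 6 of helicase activation and 8 of DNA polymerases and primase. A further 8 belong to the clamp, clamp loader and Okazaki fragment joining, and 3 to single-strand DNA binding. The rest are 4 genes of deoxynucleotide supply, 3 G1/S regulators and 4 of chromatin assembly and histone mRNA. All 46 were among the 55367 genes of the deposited table, and all 46 passed the filter on low counts that left 15126 genes.

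RNA was sequenced from mouse bone marrow cells, labelled BMMC, of animals whose drinking water was regular water (water, 5 libraries) or held 1% α-ketoglutarate (α-KG, 5 libraries). α-KG belongs to the tricarboxylic acid cycle and is consumed by dioxygenases that need it to oxidise their substrates. The series as a whole concerns myeloproliferative neoplasms, but strain, genotype, sex and age of these mice and the length of treatment were not given in the sources used. Nothing states that the libraries came from separate animals; a p-value therefore measures spread among libraries, which may be partly technical, and library numbers pair nothing across the groups. Levels are given in CPM, counts scaled by the TMM method to a library of 1e+06 counts.

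Library totals ran from 14291364 to 22490118 counts. Xist, transcribed from the silenced X of female cells, lay between 258 and 785 CPM in the 10 libraries and the Y-linked Ddx3y between 13.5 and 28.0 CPM, so each library held both. The signal recognition particle RNAs Rn7s1 and Rn7s2 took 7.56 to 24.2% of the counts in water libraries and 24.0 to 31.0% in α-KG libraries. Counts of 36 (Rpa3) to 9233 (Rrm2) stood behind the values of the replication genes, which together took 0.126 to 0.438% of a library. Markers of marrow blood cells were present in every library: summed over each list, erythroid precursor markers held 1935 to 15200 CPM, mature neutrophil markers 2190 to 4204 CPM and B cell precursor markers 84.8 to 464 CPM. Reads of a gene and of a gene on the other strand cannot be told apart here, because how the counting treated strand is unknown; 19 of the 46 genes overlap a gene on the opposite strand in GENCODE M21.

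All 46 replication genes had a lower fitted level in α-KG than in water, and none passed the test on its own. Log2 fold changes (α-KG over water) ran from −1.05 for Orc1 to −0.10 for Pold1, with a median of −0.60, beside a median of 0.02 over all 15126 genes, of which 48.3% had a log2 fold change below 0. At an adjusted p under 0.05 in the quasi-likelihood test of edgeR with Benjamini-Hochberg adjustment over all genes tested, 0 of the 46 were called lower (0.344% of all genes tested) and 0 were called higher (2.39% of all genes tested); the smallest adjusted p was 0.0692, for Orc1. At an unadjusted p under 0.05, 38 of the 46 were lower, against 11.5% of all genes tested. The 46 were measured in the same libraries and largely shared their highest and lowest ones, so the 38 are not independent observations. DESeq2 called 25 of the 46 lower. It called 688 genes lower in all, which is 4.31% on a base of 15951 genes and 2.14% on a base of 32183. With limma voom and sample quality weights 32 of the 46 were called lower, beside 6.54% of the 15126 genes. These bases differ, so the shares are not directly comparable. These are whole-marrow libraries, in which fewer cells in S phase and less of each mRNA per cell cannot be told apart.

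**Figure D1:**
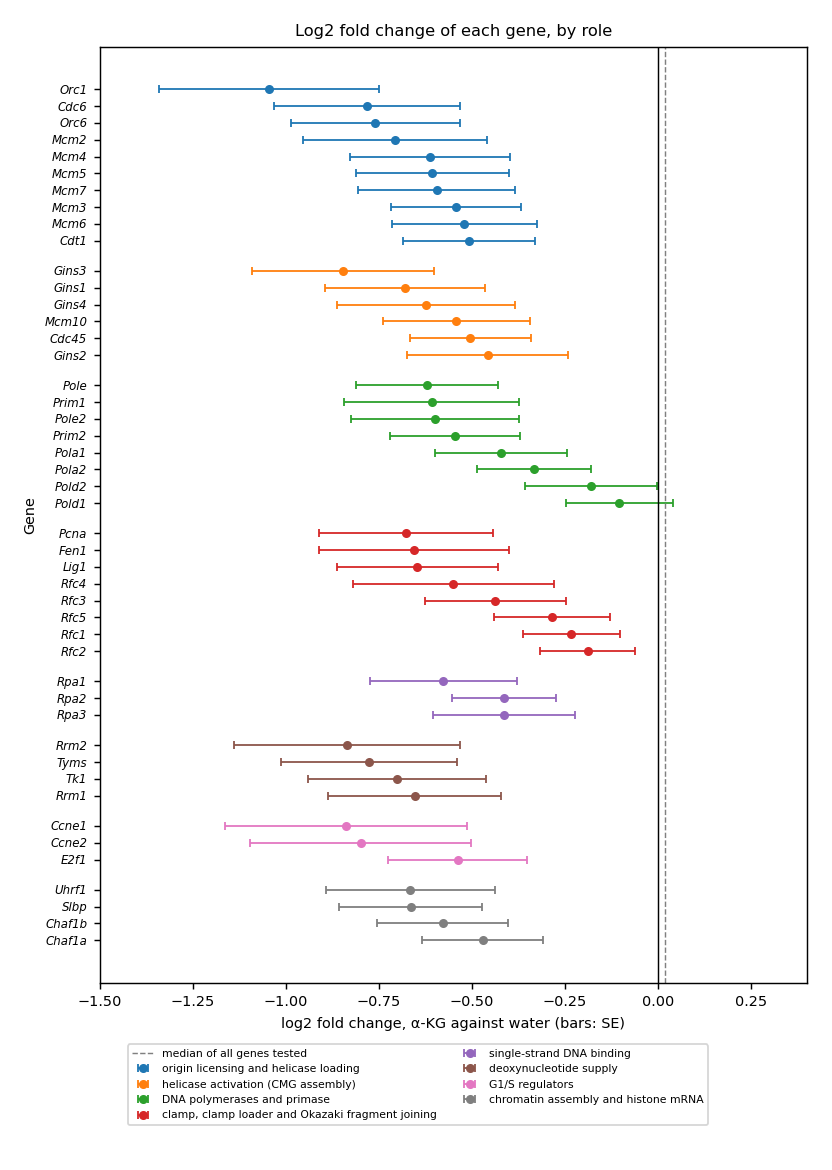
Log2 fold change (x axis, α-KG against water) of each of the 46 replication genes (y axis), grouped and coloured by role; points are edgeR estimates, bars are SE, the solid line is at 0 and the dashed line is the median of all genes tested. Every point lies left of 0, from −1.05 for Orc1 to −0.10 for Pold1.

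α-KG 2 was the highest α-KG library for 45 of the 46 genes, and for none of them did it stand far enough from the other 4 to count as an outlier by Dixon's criterion. It was at or above the lowest water library for 97.8% of the 46, beside 90.2% of all genes tested, and above the water mean for 13% of them, beside 50.3% of all genes. α-KG 1 was the lowest of all 10 libraries for 37 genes and α-KG 3 for 7, and water 5 was the highest of all 10 for 42. The groups were fully apart for 1 gene, Orc1, with all 5 α-KG values below all 5 water values, against 2.01% of all genes tested in that direction and 3.64% in the other. Taken singly, α-KG 1 lay below all 5 water libraries for 43 of the 46 genes (34.2% of all genes tested), α-KG 3 for 45 (30.1%), α-KG 4 for 34 (25.7%) and α-KG 5 for 38 (22.5%).

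**Figure D2:**
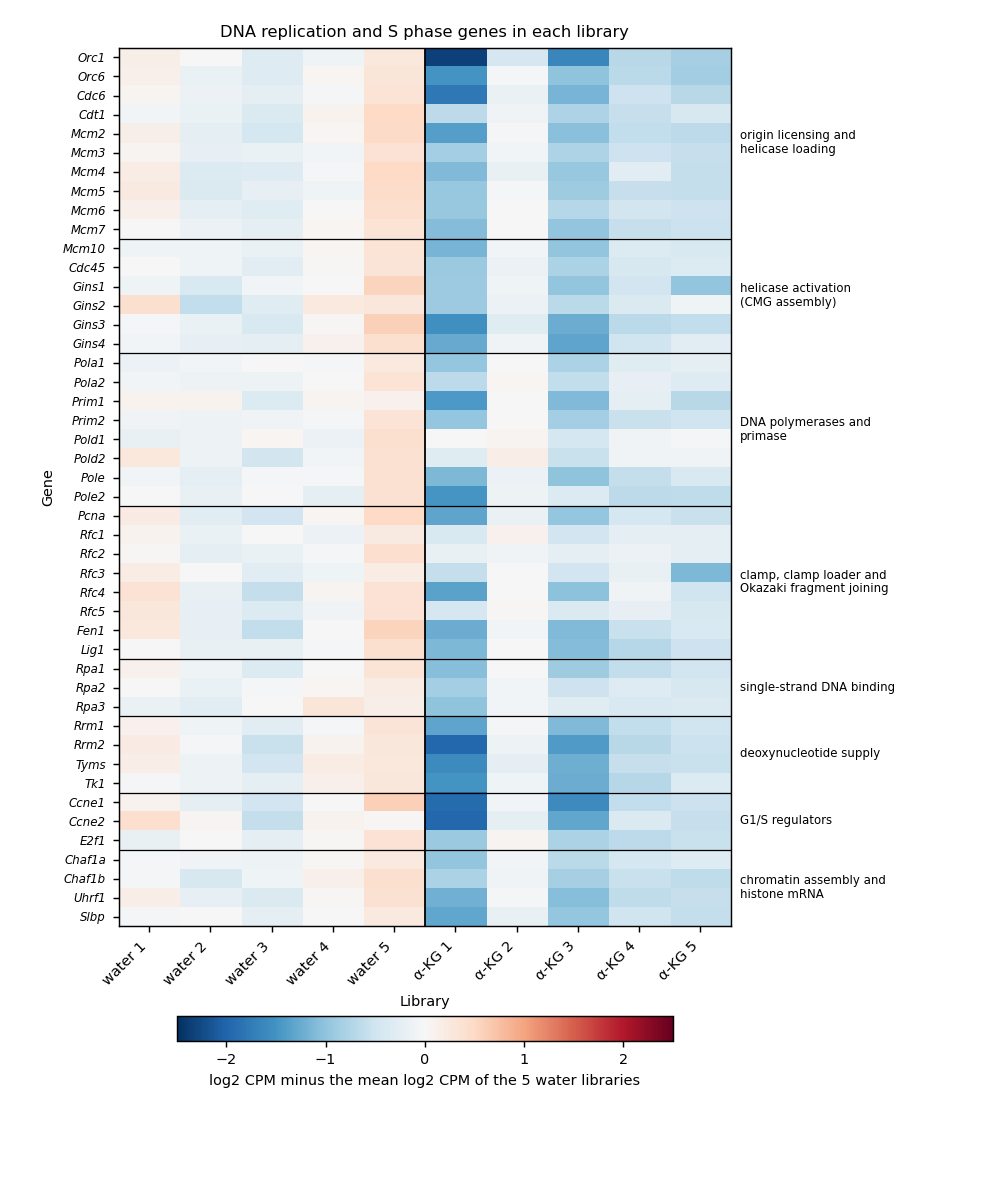
Level of each of the 46 replication genes (rows, grouped by role) in each of the 10 libraries (columns), as log2 CPM minus the mean log2 CPM of the 5 water libraries; blue is lower and red is higher. Columns α-KG 1 and α-KG 3 are the bluest, α-KG 2 is close to the water columns and water 5 is the reddest.

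Leaving out α-KG 2 changed the count of calls more than leaving out any other library. Without it, edgeR called 36 of the 46 genes lower, against 6.97% of all genes tested, and the median log2 fold change over the 46 was −0.76. Since α-KG 2 was the highest α-KG library for nearly all of the 46, leaving it out lowers their α-KG level by construction, which is not so for genes at large, so the shares are not a matched comparison. With any one of the other 9 libraries left out, 0 of the 46 were called, beside 0 to 0.63% of all genes called lower. Medians of the 46 in those fits ran from −0.65 to −0.48. The 10 genes not called without α-KG 2 were Gins2, Pold1, Pold2, Rpa3, Ccne2 and all 5 subunits of the clamp loader, Rfc1 to Rfc5. Without both α-KG 1 and α-KG 2, the lowest and the highest α-KG libraries, 21 were called (3.2% of all genes tested) and the median was −0.68; that setting was chosen after seeing the data.

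The promoters of 4 genes are shown for their E2F words. Many genes of this kind are known E2F targets, so an excess of such words comes with the choice of list. Promoters, from 250 bases before to 50 bases after a start site, came from RefSeq (GRCm38.p6) and matched 38 of the 46 genes with 44 promoters. The words searched on both strands were TTTCCCGC, TTTCGCGC, TTTGCCGC and TTTGGCGC, and the 4 promoters belong to the genes with the smallest unadjusted p among those that hold one. They are printed 5′ to 3′ on the strand of the gene, with E2F words in capitals. The Orc1 promoter is chr4:108579204-108579503 (plus strand), that of Gins3 is chr8:95633309-95633608 (plus strand), that of Cdc6 is chr11:98907901-98908200 (plus strand) and that of Mcm3 is chr1:20820263-20820562 (minus strand).
Orc1: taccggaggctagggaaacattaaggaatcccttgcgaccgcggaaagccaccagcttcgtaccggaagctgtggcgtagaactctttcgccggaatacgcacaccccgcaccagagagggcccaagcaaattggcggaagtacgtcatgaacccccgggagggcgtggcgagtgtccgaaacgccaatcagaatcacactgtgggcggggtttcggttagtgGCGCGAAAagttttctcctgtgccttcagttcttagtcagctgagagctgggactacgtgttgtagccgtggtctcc
Gins3: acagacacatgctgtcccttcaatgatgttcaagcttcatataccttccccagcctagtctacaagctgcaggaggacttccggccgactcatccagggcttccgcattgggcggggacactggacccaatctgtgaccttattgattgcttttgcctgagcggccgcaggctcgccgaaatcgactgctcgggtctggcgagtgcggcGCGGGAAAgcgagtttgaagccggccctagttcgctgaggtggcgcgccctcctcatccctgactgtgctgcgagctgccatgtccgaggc
Cdc6: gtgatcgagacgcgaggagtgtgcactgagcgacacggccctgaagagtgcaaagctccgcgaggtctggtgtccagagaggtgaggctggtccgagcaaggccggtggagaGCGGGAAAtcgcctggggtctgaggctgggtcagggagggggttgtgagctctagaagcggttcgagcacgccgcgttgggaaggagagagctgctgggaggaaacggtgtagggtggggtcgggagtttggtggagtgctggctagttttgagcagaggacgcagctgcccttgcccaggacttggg
Mcm3: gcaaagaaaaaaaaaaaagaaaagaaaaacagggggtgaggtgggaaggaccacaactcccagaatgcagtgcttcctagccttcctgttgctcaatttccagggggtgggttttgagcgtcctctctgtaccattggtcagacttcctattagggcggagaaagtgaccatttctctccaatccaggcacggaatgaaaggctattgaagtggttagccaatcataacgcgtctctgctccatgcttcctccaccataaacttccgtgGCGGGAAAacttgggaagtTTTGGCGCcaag

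Counted from the RefSeq start site, the word began 27 bases before it in Orc1, 41 bases before it in Gins3 and 138 bases before it in Cdc6. GENCODE M21 starts these genes further upstream, at chr4:108579423, chr8:95633453 and chr11:98907801. By that annotation each of these words lies inside the gene. Mcm3 had a pair of words after its start site, the first of them 19 bases downstream. An E2F word stood in 14 of the 44 promoters of replication genes (31.8%) and in 744 of 32851 promoters of the whole RefSeq table (2.26%). The whole set was not matched to the replication promoters in base composition. The shorter words TTCCCGC and TTGGCGC, which overlap the longer ones, stood in 50% of the replication promoters and in 6.81% of all. CCAAT was found in 59.1% against 37.4%, and TTTGAA, the CHR element of genes expressed in G2 and mitosis, in 11.4% against 17.9%. The median log2 fold change was −0.60 over the 14 genes with one, −0.58 over the 24 with a promoter listed and no word, and −0.62 over the 8 with no promoter in the table (Gins1, Gins2, Gins4, Mcm4, Ccne2, Prim2, Pole and Rfc2). A match describes letters in a window and does not show that E2F binds there.

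Genes of origin licensing and helicase loading had a median log2 fold change of −0.61, and all 10 were lower at an unadjusted p under 0.05. Orc1 (chr4:108579423-108614833, plus strand) encodes the largest subunit of the origin recognition complex, which marks where replication can begin. Its level was 29.2, 26.7, 21.2, 24.8 and 31.9 CPM in water 1 to 5 and 5.29, 19.9, 8.56, 16.4 and 14.9 CPM in α-KG 1 to 5. The highest α-KG library, α-KG 2, stood just under the lowest water library, water 3, and α-KG 1 and α-KG 3 were far below the other 8. The means were 26.8 ± 4.10 and 13.02 ± 5.96 CPM (mean and SD, n = 5), a log2 fold change of −1.05 ± 0.29 (SE) with an adjusted p of 0.0692 in edgeR. Orc1 overlaps the opposite-strand gene model Gm12743. Of the other genes of the 46 given library by library, Orc6, Prim2, Pole, Lig1, Tk1 and Slbp also overlap opposite-strand genes. Among the rest of the 46, so do Mcm7, Cdc45, Gins2, Pola1, Pold1, Pole2, Rfc2, Rfc4, Rfc5, Fen1, Ccne2 and Chaf1a.

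Orc6, the smallest subunit of the same complex, measured 24.3, 19.9, 17.8, 23.2 and 27.7 CPM in the water libraries and 7.89, 21.5, 11.1, 13.9 and 12.2 CPM in the α-KG libraries. α-KG 2 lay among the water values, and the other 4 α-KG libraries lay below all of them. Its log2 fold change was −0.76 ± 0.23 (SE), with an adjusted p of 0.0782 in edgeR. Cdc6, the ATPase that loads MCM at origins together with Cdt1, averaged 71.3 ± 11.6 CPM in water and 41.5 ± 16.2 CPM in α-KG (mean and SD, n = 5; log2 fold change −0.78 ± 0.25). Cdt1 had the smallest difference of the 10 licensing genes, −0.51 ± 0.18. The 6 MCM genes, whose products form the ring of the helicase, lay close together, from −0.71 for Mcm2 to −0.52 for Mcm6, and their edgeR adjusted p ran from 0.0885 to 0.118.

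Helicase activation genes had a median of −0.58, with 5 of 6 lower at an unadjusted p under 0.05. Gins3 encodes a subunit of GINS, the complex that holds Cdc45 and MCM together. It measured 7.88, 7.30, 6.25, 8.34 and 12.3 CPM in water and 2.84, 6.62, 3.48, 5.13 and 5.33 CPM in α-KG. Only α-KG 2 reached the water range, above water 3, and water 5 stood above the other water libraries. The log2 fold change was −0.85 ± 0.24 (SE), with an adjusted p of 0.0708 in edgeR.

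Gins1, another GINS subunit, had 7.95, 6.55, 8.10, 8.44 and 12.6 CPM in water and 4.55, 7.85, 4.31, 6.08 and 4.32 CPM in α-KG. The groups overlapped through α-KG 2 and water 2 alone. Its log2 fold change was −0.68 ± 0.22 (SE; edgeR adjusted p 0.0852). Gins4 followed with −0.62, Mcm10, which helps start the helicase, with −0.54, and Cdc45 with −0.50. Gins2, at −0.46, was the one gene of the group above that unadjusted threshold, with an edgeR adjusted p of 0.188. Gins2 also overlaps opposite-strand genes, Gse1 among them.

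Polymerase and primase genes were less uniform, with a median of −0.48 and 6 of 8 lower at an unadjusted p under 0.05. Pole encodes the catalytic subunit of polymerase epsilon, which copies the leading strand. Its levels were 57.9, 51.4, 59.8, 59.1 and 79.9 CPM in water and 28.1, 54.9, 30.4, 40.3 and 46.6 CPM in α-KG. Among the α-KG libraries, α-KG 2 alone came within the water range, and its value was above that of water 2. The fitted difference was −0.62 ± 0.19 (SE; edgeR adjusted p 0.0808).

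Prim2, the large subunit of the primase that begins each new strand, measured 28.1, 27.2, 28.0, 28.9 and 37.8 CPM in water and 15.3, 29.5, 16.4, 20.3 and 21.2 CPM in α-KG. The other 4 α-KG libraries were below every water library, while α-KG 2 exceeded all water libraries except water 5. The log2 fold change was −0.55 ± 0.17 (SE; edgeR adjusted p 0.0869). The smallest differences of the 46 were in polymerase delta, which copies the lagging strand: its catalytic subunit Pold1 had 63.5 ± 11.2 CPM in water and 59.0 ± 7.35 CPM in α-KG (mean and SD, n = 5), and its second subunit Pold2 had 10.1 ± 2.25 and 8.92 ± 1.62 CPM. Their log2 fold changes were −0.10 ± 0.14 and −0.18 ± 0.18 (SE), each no larger than about its SE. The other subunits of this polymerase, outside the 46, had log2 fold changes of −0.43 ± 0.15 (Pold3) and 0.61 ± 0.18 (Pold4). Without water 5 the Pold1 value was 0.006, so its sign rested on that library.

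In the group of the clamp, its loader and Okazaki fragment joining, the median was −0.49 and 4 of 8 genes were lower at an unadjusted p under 0.05. Lig1, the ligase that seals lagging-strand fragments, measured 109.6, 96.0, 96.8, 107.7 and 144.8 CPM in water and 50.1, 109.5, 51.4, 66.6 and 76.7 CPM in α-KG. α-KG 2 was level with water 1, and the other 4 α-KG libraries were below the whole water range. The log2 fold change was −0.65 ± 0.22 (SE; edgeR adjusted p 0.0961).

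Pcna, the sliding clamp that tethers polymerases to DNA, measured 122.2, 87.9, 76.2, 110.4 and 149.7 CPM in water and 42.5, 94.5, 54.7, 78.1 and 71.8 CPM in α-KG. Water 3 lay below α-KG 2 and α-KG 4, and water 2 lay below α-KG 2. Its log2 fold change was −0.68 ± 0.23 (SE; edgeR adjusted p 0.101), and it is uncertain because the annotation holds the pseudogene copies Pcna-ps1 and Pcna-ps2. Fen1, the nuclease that trims flaps between fragments, had −0.66 ± 0.25. The 5 clamp loader genes spread from −0.55 for Rfc4 and −0.44 for Rfc3 to −0.29 for Rfc5, −0.23 for Rfc1 and −0.19 for Rfc2. Relative to its mean, Rfc2 varied least between α-KG libraries among the 46 genes, at 23.7 ± 1.01 CPM (mean and SD, n = 5).

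Replication protein A coats single-stranded DNA at the fork, and its 3 genes had a median of −0.41. Rpa2, its middle subunit, measured 27.3, 24.3, 26.4, 28.1 and 31.0 CPM in water and 15.2, 26.0, 19.0, 21.9 and 20.8 CPM in α-KG. Only water 2 lay below an α-KG library, α-KG 2. The log2 fold change was −0.41 ± 0.14 (SE; edgeR adjusted p 0.0961). Rpa1, the large DNA-binding subunit, had −0.58 ± 0.20, and Rpa3, the smallest, −0.41 ± 0.19 on counts as low as 36.

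Among the groups with more than 3 genes, deoxynucleotide supply had the lowest median, −0.74, and all 4 of its genes were lower at an unadjusted p under 0.05. Tyms, thymidylate synthase, measured 39.7, 32.4, 25.6, 40.3 and 42.3 CPM in water and 11.8, 30.4, 15.2, 23.9 and 24.1 CPM in α-KG. Water 3 was the one water library below an α-KG library, and α-KG 1 was the lowest of the 10. Its log2 fold change was −0.78 ± 0.24 (SE; edgeR adjusted p 0.0808); a pseudogene copy, Tyms-ps, makes its count uncertain.

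Tk1, the kinase that salvages thymidine in S phase, measured 84.5, 79.4, 73.7, 95.4 and 106.2 CPM in water and 31.1, 80.5, 36.7, 52.8 and 68.8 CPM in α-KG. α-KG 2 lay above water 2 and water 3, and the other 4 α-KG libraries were below the water range. The log2 fold change was −0.70 ± 0.24 (SE; edgeR adjusted p 0.100). Rrm2, the regulatory subunit of ribonucleotide reductase that is made in S phase, averaged 252 ± 51.9 CPM in water and 141 ± 64.1 CPM in α-KG (mean and SD, n = 5; log2 fold change −0.84 ± 0.30). Its partner Rrm1, the large subunit, had −0.65 ± 0.23.

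**Figure D3:**
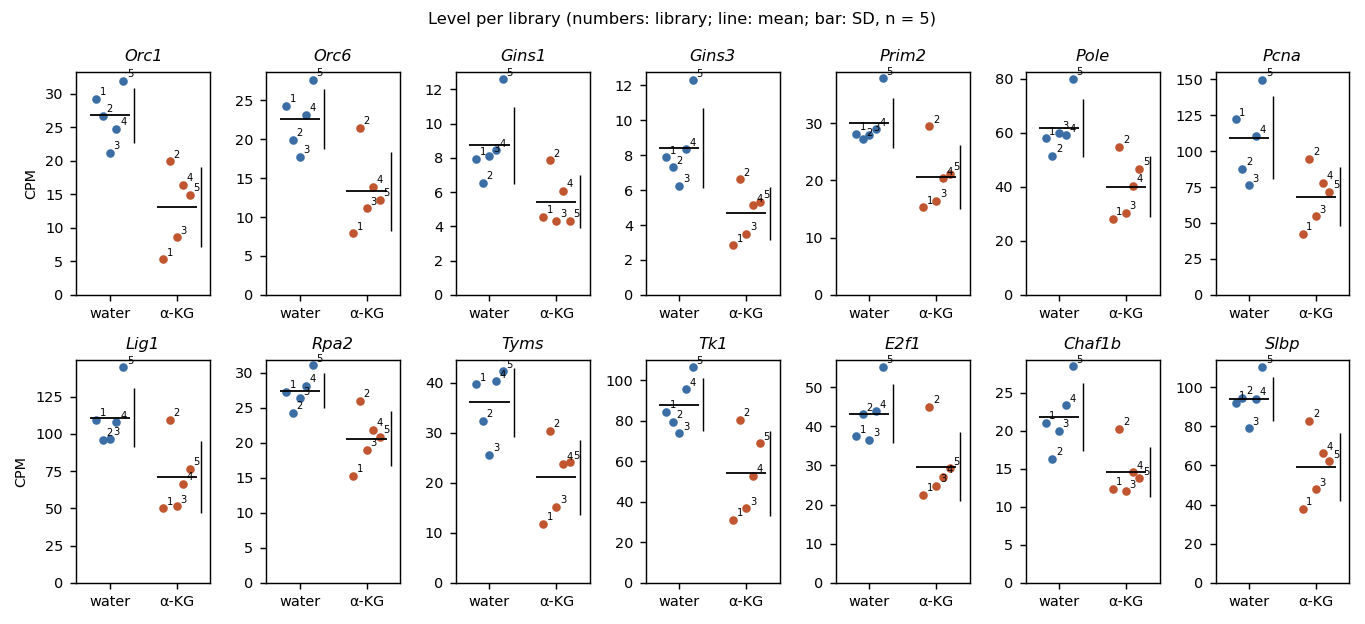
Level in CPM (y axis, from 0) of 14 replication genes, chosen within each role by the smallest p, in the 5 water and 5 α-KG libraries (x axis); points are libraries with their numbers, the horizontal line is the mean and the bar is the SD (n = 5). Point 2 of α-KG is the highest of its group in each panel, and the groups do not overlap in the Orc1 panel alone.

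The G1/S regulators had a median of −0.80. Cyclin E, encoded by Ccne1 and Ccne2, drives entry into S phase; Ccne1 averaged 37.1 ± 10.9 CPM in water and 20.8 ± 10.2 CPM in α-KG (mean and SD, n = 5), and Ccne2 24.8 ± 5.80 and 14.4 ± 6.14 CPM. Their log2 fold changes were −0.84 ± 0.32 and −0.80 ± 0.30 (SE), with edgeR adjusted p of 0.13 and 0.118. E2f1, a transcription factor that activates replication genes, measured 37.4, 43.0, 36.6, 43.8 and 55.3 CPM in water and 22.5, 44.9, 24.9, 27.1 and 29.2 CPM in α-KG. α-KG 2 exceeded 4 of the 5 water libraries, and the others of its group were below all of them. The E2f1 log2 fold change was −0.54 ± 0.19 (SE; edgeR adjusted p 0.103).

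Chromatin assembly and histone mRNA genes had a median of −0.62. Slbp, which binds the stem-loop of histone mRNAs, measured 92.1, 94.8, 79.0, 94.1 and 110.4 CPM in water and 38.0, 82.7, 47.8, 66.2 and 62.1 CPM in α-KG. α-KG 2 lay above water 3 only, and the remaining α-KG libraries were below the water range. Its log2 fold change was −0.67 ± 0.19 (SE; edgeR adjusted p 0.0707).

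Chaf1b, the middle subunit of chromatin assembly factor 1, measured 21.1, 16.3, 20.0, 23.3 and 28.5 CPM in water and 12.3, 20.2, 12.04, 14.5 and 13.8 CPM in α-KG. The overlap was again through α-KG 2, which stood above water 2 and water 3. Its log2 fold change was −0.58 ± 0.18 (SE; edgeR adjusted p 0.0796). Chaf1a, the large subunit, had −0.47 ± 0.16, and Uhrf1, which recognises hemimethylated DNA behind the fork and recruits Dnmt1, had −0.67 ± 0.23.

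Levels between genes were compared per length, as CPM per kb of exon in GENCODE M21. The 7 highest were Rrm2, Pcna, Uhrf1, Mcm7, Mcm3, Mcm5 and Mcm6, in that order in water and in α-KG. Rrm2 stood at 91.0 ± 18.7 CPM per kb in water and 51.0 ± 23.1 in α-KG (mean and SD, n = 5), and Pcna, the next, at 45.5 ± 12.1 and 28.5 ± 8.46. Pole2, a subunit of polymerase epsilon, was the lowest in both groups, at 2.01 ± 0.35 and 1.32 ± 0.41 CPM per kb. Mcm3, Mcm5 and Mcm6 differed from each other by less than 1 SD in both groups.

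**Figure D4:**
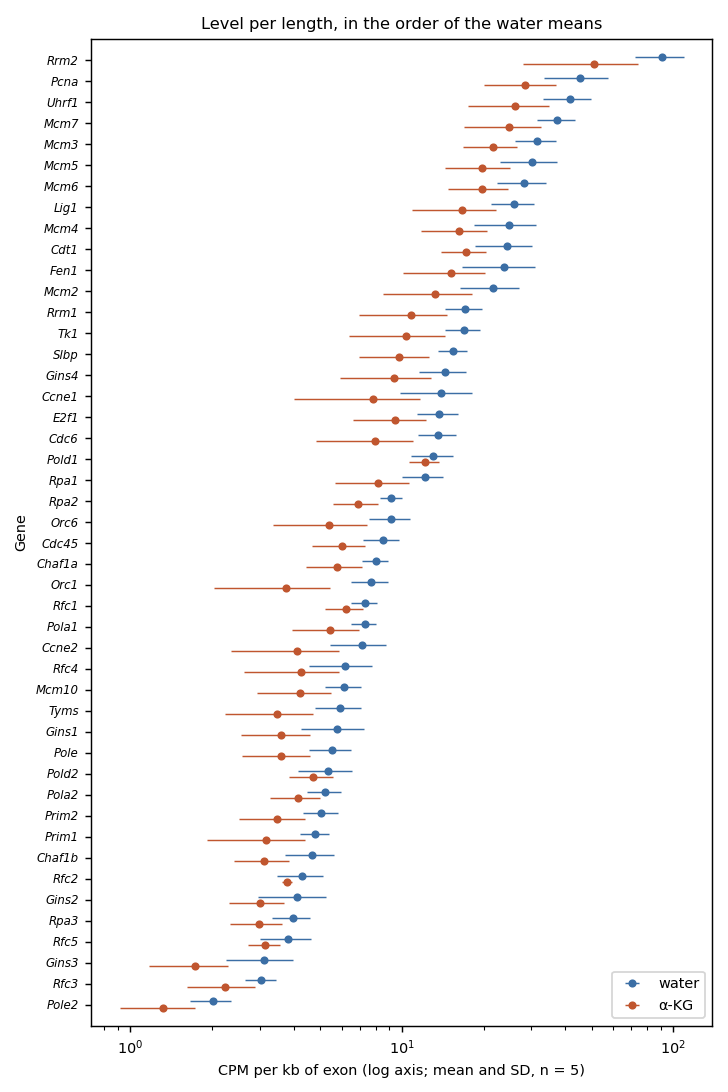
Level per length (x axis, CPM per kb of exon, log axis) of the 46 replication genes (y axis, ordered by the water mean); points are means and bars are SD (n = 5) of water and α-KG. The α-KG mean is below the water mean for each gene, and both groups run from Rrm2 at the top to Pole2 at the bottom.

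Libraries varied more within α-KG than within water. The median coefficient of variation of the replication genes was 17.5% in water and 29.4% in α-KG, beside 18.1% and 24.5% over all genes tested, and it was higher in α-KG for 40 of the 46 genes. Summed up as the mean of log2(CPM + 1) over the 46 genes, the libraries stood at 5.48, 5.26, 5.16, 5.43 and 5.76 in water and at 4.37, 5.35, 4.56, 4.97 and 4.94 in α-KG. α-KG 2 lay inside the water range on this scale and the other 4 lay below it, with a group difference of −0.58.

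Other genes of replication outside the 46 were followed by a list of 64. Of these, 53 had a log2 fold change below 0, against 48.3% of all genes tested, and the median over the 64 was −0.48. At an unadjusted p under 0.05 in edgeR, 40 were lower, against 11.5% of all genes tested, and 4 were higher. The share of all genes higher at that threshold was not counted. Asf1a alone passed the test, beside 0.344% of all genes tested that were called lower. This chaperone, which hands histones H3 and H4 to chromatin assembly factors, fell from 18.4 ± 2.95 to 11.1 ± 2.07 CPM (mean and SD, n = 5). Its log2 fold change was −0.73 ± 0.16, with an edgeR adjusted p of 0.0356. Its values were 17.0, 19.8, 13.9, 20.2 and 21.2 CPM in water and 8.63, 13.3, 9.15, 12.5 and 11.8 CPM in α-KG, all below the lowest water value. The call was lost in 8 of 10 fits with a library left out, and Asf1a overlaps the opposite-strand gene Mcm9.

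By role, 11 of 13 other licensing and firing genes were below 0, with a median of −0.50, as were 13 of 16 other fork genes (−0.48), 4 of 7 nucleotide supply genes (−0.34), 16 of 19 G1/S regulators (−0.56) and 9 of 9 chromatin genes (−0.41). The genes with the smallest p of each list follow. Dbf4 and Cdc7, the subunits of the kinase that fires origins, had log2 fold changes of −0.77 ± 0.23 and −0.50 ± 0.15. Orc3, an origin recognition subunit, had −0.41 ± 0.12. All α-KG libraries were below all water libraries for these 3, and also for Atad5, Dtymk, E2f3, Skp2 and Npat. This held for 10 of the 64 genes, against 2.01% of all genes tested. In the other direction 2 of the 64 were fully apart, against 3.64%. The other origin recognition genes of the list, chosen after their values were seen, had −0.34 ± 0.22 (Orc2), −0.29 ± 0.23 (Orc5) and 0.06 ± 0.13 (Orc4). At the fork, Atad5, which unloads the clamp, had −0.69 ± 0.21 and Rnaseh2b, a subunit of the RNase that removes ribonucleotides from DNA, −0.59 ± 0.16. In nucleotide supply, Dtymk, thymidylate kinase, had −0.49 ± 0.13. Of the G1/S and chromatin genes, E2f3 had −0.33 ± 0.10, Skp2 −0.56 ± 0.17, Dtl −0.56 ± 0.18, Npat, the activator of histone genes, −0.41 ± 0.14 and Asf1b −0.80 ± 0.27. Leaving aside Orc2, Orc4 and Orc5, adjusted p of these 11 genes in edgeR ran from 0.0605 to 0.102.

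Of the 64, 11 had values above 0, against the direction of the 46, and the 4 with an unadjusted p under 0.05 were Samhd1, Pold4, Dctd and Mcmbp. Samhd1, the enzyme that breaks down deoxynucleotides and is abundant in non-dividing myeloid cells, measured 92.4, 91.6, 96.4, 83.8 and 79.1 CPM in water and 122.2, 96.4, 141.5, 146.7 and 141.4 CPM in α-KG. All α-KG values were above all water values, with α-KG 2 again the closest to water (log2 fold change 0.55 ± 0.14, edgeR adjusted p 0.0597). Pold4, the small subunit of polymerase delta, had 0.61 ± 0.18 on low levels of 4.52 ± 0.86 and 6.93 ± 1.33 CPM (mean and SD, n = 5), with edgeR adjusted p 0.0735. Dctd, dCMP deaminase, had 0.87 ± 0.29 at 0.81 and 1.52 CPM, and Mcmbp, which binds MCM proteins, had 0.28 ± 0.10. Cdkn1a, the p21 inhibitor of cyclin-dependent kinases, had 0.32 ± 0.24, and E2f2, an E2F factor known for its role in erythroid cells and not among those above 0, had −0.37 ± 0.37 with 773 ± 192 and 598 ± 282 CPM; the edgeR adjusted p were 0.379 and 0.513.

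A list of 25 mitosis genes was set beside the 46, because the same cells go on from S phase to mitosis. All 25 were below 0 on the log2 fold change scale, against 48.3% of all genes tested, and their median was −0.70. In edgeR 0 were called at an adjusted p under 0.05, beside 0.344% of all genes called lower. At an unadjusted p under 0.05, 24 were lower, against 11.5% of all genes tested. Ttk, a spindle checkpoint kinase, had −0.66 ± 0.16 (edgeR adjusted p 0.0528), Cdk1, the kinase of mitotic entry, −0.81 ± 0.20 (edgeR adjusted p 0.0555) and Ccnb2, a cyclin B, −1.01 ± 0.29. As a mean of log2(CPM + 1), the mitosis list was 0.79 lower in α-KG, and α-KG 1 and α-KG 3 were its lowest libraries as they were for replication. Whether the replication and mitosis lists differ from each other was not tested.

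Marker lists of some marrow cell types had different means in the groups, and those of others had nearly equal ones. Their part in the replication result was not tested. The covariate fits given last cannot settle it, because they were chosen after seeing the data and the monocyte mean separates the groups. The mean of log2(CPM + 1) over 12 erythroid precursor markers was 8.82 ± 0.41 in water and 7.84 ± 1.21 in α-KG (mean and SD, n = 5). α-KG 1, the lowest library for replication, was also the lowest here at 5.86, with the other 4 α-KG libraries between 7.64 and 8.80. α-KG 2, α-KG 4 and α-KG 5 lay within the water range of 8.11 to 9.11, and α-KG 3 lay below it. Of the 12 markers, 11 had log2 fold changes below 0, and Alas2 had 0.13 ± 0.37. In edgeR 0 of the 12 were called at an adjusted p under 0.05, and the smallest was 0.175. The erythroid markers summed to 7405 to 15200 CPM in water libraries and 1935 to 13270 CPM in α-KG libraries. Over 8 monocyte markers the mean was 4.59 ± 0.20 in water and 5.53 ± 0.37 in α-KG, with sums of 264.7 to 347.9 and 341.4 to 643.2 CPM. All 8 had log2 fold changes above 0. At an adjusted p under 0.05 in edgeR, 6 were called higher, against 2.39% of all genes tested. On the monocyte mean α-KG 2 was the lowest α-KG library at 4.92, just above the highest water library at 4.91. Over 9 macrophage markers, with sums of 39.8 to 81.5 CPM in water and 79.9 to 127.0 CPM in α-KG, the mean was 0.88 higher in α-KG, and over 9 T and NK cell markers it was 0.46 higher. Granulocyte precursor, mature neutrophil and B cell precursor means differed by −0.01, 0.04 and 0.04. The B cell precursor mean ran from 2.39 in α-KG 5 to 4.11 in α-KG 1, with an SD of 0.63 in α-KG and 0.27 in water. Means over the lists of all blood cells, stem and progenitor cells, and megakaryocytes and platelets were 0.35, 0.31 and 0.15 higher in α-KG. Those of stromal cells and skeletal muscle were 0.14 and 0.23 higher. Of 5 stromal markers tested, 4 had log2 fold changes above 0, among them Cxcl12 at 1.85 ± 0.30 (edgeR adjusted p 0.0172). Col1a1 was at −1.64 ± 0.42 (edgeR adjusted p 0.0577). The muscle mean was 1.71 in α-KG 2, against 0.39 to 0.95 in the other α-KG libraries and 0.56 to 0.83 in water. Of 3 muscle markers tested, 2 were below 0. Whether the muscle level of α-KG 2 bears on the replication genes was not tested. No marker of these lists was at 0 in all libraries.

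**Figure D5:**
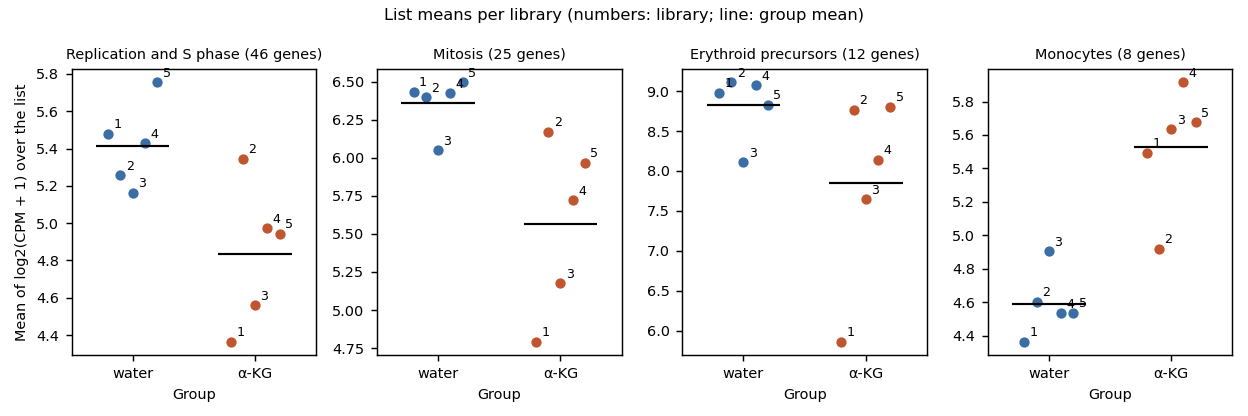
Mean of log2(CPM + 1) per library (y axis, a separate range in each panel that does not start at 0) over the 46 replication genes, 25 mitosis genes, 12 erythroid precursor markers and 8 monocyte markers, for water and α-KG (x axis); points are libraries with their numbers and lines are group means. α-KG 1 is the lowest library in the first 3 panels, and α-KG 2 is the α-KG library nearest to water in the replication, mitosis and monocyte panels.

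Fits that carried a marker list's mean per library as a covariate gave smaller differences for the replication genes; both were chosen after seeing the data. With the erythroid mean, all 46 log2 fold changes stayed below 0, the median was −0.35, and 17 genes were lower at an unadjusted p under 0.05, against 5.09% of all genes tested. With the monocyte mean, which does not overlap between the groups, 30 of the 46 were below 0, the median was −0.07 and 0 were lower at an unadjusted p under 0.05, against 0.562% of all genes tested. Neither fit called a replication gene at an adjusted p under 0.05 in edgeR. Because the monocyte mean separates the groups, the treatment and this mean cannot be told apart in these libraries. With Rn7s1, Rn7s2 and CT010467.1 left out of the counts, the median of the 46 was −0.59.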

How the data were processed

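Total RNA from mouse bone marrow cells was column-purified with DNase treatment, depleted of ribosomal RNA by an RNase H method and sequenced on an Illumina NovaSeq, per the labels' protocols. The submitters' processing notes name bcl2fastq and DRAGEN, without versions, and the build GRCm38; of the quantifier, the annotation release and the strand setting, nothing is given in these sources. The table the authors deposited holds expected counts per gene, unscaled; 10.3% of the values depart from a whole number by more than 1e-06.

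Here they were rounded to whole numbers. Low genes were removed with filterByExpr (minimum count 10, minimum total 15) and tested with edgeR 4.0.16 (quasi-likelihood, two-sided, TMM, robust, without covariates) in R 4.3.3, all 10 libraries in one fit, with Benjamini-Hochberg adjustment over 15126 genes and a threshold of 0.05. Each SE was obtained from the log2 fold change and the F statistic (its size over the root of F). The steps were tested on simulated data. Library totals of 14291364 to 22490118 counts limit the precision of genes at a few CPM.

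The 46 genes, the lists and the tests were chosen with earlier results of these data known. Values in every library are given for the 2 genes with the smallest unadjusted p of each role (1 for roles of 3 genes). Of the other lists, the 3 genes with the smallest p, those past the threshold, and E2f2, Cdk1 and Cdkn1a are named. Pold3, Mcmbp, Orc2, Orc4 and Orc5 are named outside that rule, as are the markers Alas2, Cxcl12 and Col1a1. Further genes named among the 46 were picked after their values were seen. Alternatives were other scalings and filters, DESeq2 1.42.0, limma voom 3.58.1 with quality weights, list means as covariates, and each library left out. Gene positions and exonic lengths came from GENCODE M21 on GRCm38 and promoters from RefSeq.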

Additional observations from a re-analysis of the deposited data

Results flagged for a closer look

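A library far from the other 4 of its group was found in 5 of 132 groups of 5 values (66 genes, each in water and in α-KG); chance flags about 1 in 20 groups. Water 5 was high for Pola2, a subunit of the polymerase that starts new strands with primase, at 54.1 CPM with the other water libraries at 39.2 to 42.5. The same library was high for Prim2 at 37.8 CPM (the others 27.2 to 28.9) and for Lig1 at 144.8 CPM (the others 96.0 to 109.6). Water 3 was low for Prim1, the catalytic primase subunit, at 14.6 CPM, with the others at 19.3 to 19.9. α-KG 1 was low for Orc3 at 8.24 CPM, with the other α-KG libraries at 11.2 to 12.2.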

How the results depend on the processing

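The direction of the 46 replication genes held under all scalings, filters and tests run, and with each library left out, except Pold1, which ran from −0.15 to 0.0062 (above 0 without water 5); the counts of calls did not hold. The number called lower was 25 with DESeq2, 32 with limma voom, 3 with no filter on low counts, 21 without both α-KG 1 and α-KG 2, and 0 to 36 with a library left out; the number at an unadjusted p under 0.05 was then 30 to 43, the number below 0 was 45 to 46 and their median ran from −0.76 to −0.48. Over all genes, the calls (413 as reported, 361 higher and 52 lower) were 1657 with DESeq2 (969 higher, 688 lower), 2390 with limma voom (1401 and 989), 1336 without both α-KG 1 and α-KG 2 (837 and 499), 0 to 2683 with a library left out (0 to 1610 higher, 0 to 1073 lower), and, for lower calls, 100 with upper-quartile scaling and 154 with no filter. With the erythroid covariate 47 genes were called (45 higher, 2 lower), 17 of the 46 were lower at an unadjusted p under 0.05, and E2f2 was at 0.21. With the monocyte covariate 0 genes were called (0 higher, 0 lower), 0 of the 46 were lower at an unadjusted p under 0.05, 30 were below 0 and the median was −0.074. Genes of the 46 above 0 in that fit were Cdt1 0.032, Mcm2 0.037, Mcm5 0.024, Mcm6 0.049, Mcm7 0.017, Pold1 0.0037, Pold2 0.37 and Rfc1 0.091. The others of the 46 above 0 were Rfc3 0.049, Rfc4 0.058, Rfc5 0.21, Fen1 0.098, Lig1 0.0089, Rpa1 0.105, E2f1 0.093 and Uhrf1 0.043. Of the named genes outside the 46, E2f2 (0.14) and Asf1b (0.017) changed from below to above 0 with the monocyte covariate. The covariate fits and the fit without both libraries were chosen after seeing the data, and the cause of these shifts was not tested. With the shorter E2F words 22 promoters matched. No paired analysis was possible because water and α-KG titles share no number and nothing in the labels ties one library to another.

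Depth limits the low genes: Rpa3 had as few as 36 counts in a library.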
